A study of Mus musculus with 34 samples.

Results

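Glutamate receptors and their auxiliary subunits were examined here as 30 genes of the mouse dorsal hippocampus, in animals that had just learned the places of objects and in animals that had not. The genes were taken by symbol from a table of estimated read counts for 54532 genes, with symbols and positions from GENCODE M21 (GRCm38), by a rule that uses no measured value. They comprised 4 AMPA receptor genes, 7 NMDA receptor genes, 5 kainate receptor genes, 1 delta receptor gene, 6 metabotropic receptor genes, 5 genes of AMPA receptor auxiliary subunits and 2 genes of kainate receptor auxiliary subunits. All 30 passed the filter on low counts, which left 22018 genes. All mice were adult male C57BL/6J animals, 2 to 3 months old, which were housed singly and handled on several days beforehand. In the homecage group, 4 mice stayed in their cages, and in the SOR group, 4 mice were habituated to an open field, explored objects in it over repeated sessions (spatial object recognition) and were euthanized 1 h after training, with homecage mice taken at the same time of day. Each mouse gave 1 RNA library from the whole dorsal hippocampus.

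Glutamate carries most excitatory transmission in the hippocampus. AMPA receptors pass the fast current at a synapse, NMDA receptors admit calcium when glutamate arrives at a depolarized membrane, and kainate receptors adjust excitability and release. Metabotropic receptors act through G proteins, and auxiliary subunits set the trafficking and gating of the channels they accompany. In the hours after learning, synaptic strength is known to be adjusted by moving and modifying receptors that already exist as well as by transcription.

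Total estimated counts ranged from 51406011 to 81525977 per library. The training label was checked on immediate early genes. *Arc*, which regulates AMPA receptor removal from synapses, was at 91.2, 85.4, 94.1 and 97.0 CPM (counts scaled to a common library size) in homecage replicates 1 to 4 and at 266, 218, 244 and 258 CPM in SOR replicates 1 to 4. Its log2 fold change was 1.42 ± 0.065 (SE), and those of *Fos* and *Egr2*, both transcription factors, were 1.89 and 2.76. The groups overlapped for none of these genes. Summed markers of choroid plexus were at 285 CPM in SOR replicate 1 and at 21.3 to 97.0 CPM in the other 7 libraries. Summed thalamus markers were lowest in SOR replicate 1, at 121 CPM against 138 to 174 CPM. Of the 7 thalamus genes, *Prkcd* and *Calb2* were lowest in that library and *Lef1* was highest in it. The rest were lowest in other libraries.

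Within the homecage group, levels of the 30 genes covered more than 3 orders of magnitude on a per-length scale, CPM per kilobase of all annotated exons of a gene merged. On this scale *Gria1*, the GluA1 subunit of AMPA receptors, was highest with 197 ± 10.8 (SD, n = 4). *Cnih2*, a cornichon protein that carries AMPA receptors out of the endoplasmic reticulum and slows their closing, followed with 115 ± 8.69, and *Gria2*, the subunit that makes AMPA receptors impermeable to calcium, with 88.8 ± 1.48. These 3 genes did not overlap with each other or with any other of the 30. *Grin2a*, *Grm5* and *Grin2b* came next at 50.6 ± 3.10, 44.8 ± 1.46 and 39.5 ± 1.82. *Grin1* (28.2 ± 1.11) and *Grm3* (28.0 ± 0.359) were not separated by their spread. At the other end stood *Grin2d* (0.239 ± 0.0352) and *Grin3b* (0.0747 ± 0.0391), whose order was the same in the SOR group. The order of genes depends on the exon length used, and the lengths of the transcripts expressed here are not known. In CPM, homecage *Gria2* (1381 ± 23.0) was above *Gria1* (1193 ± 65.0), and *Cnih2* was at 158 ± 11.9. Shares and ratios per kilobase given below rest on the same lengths.

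**Figure D1:**
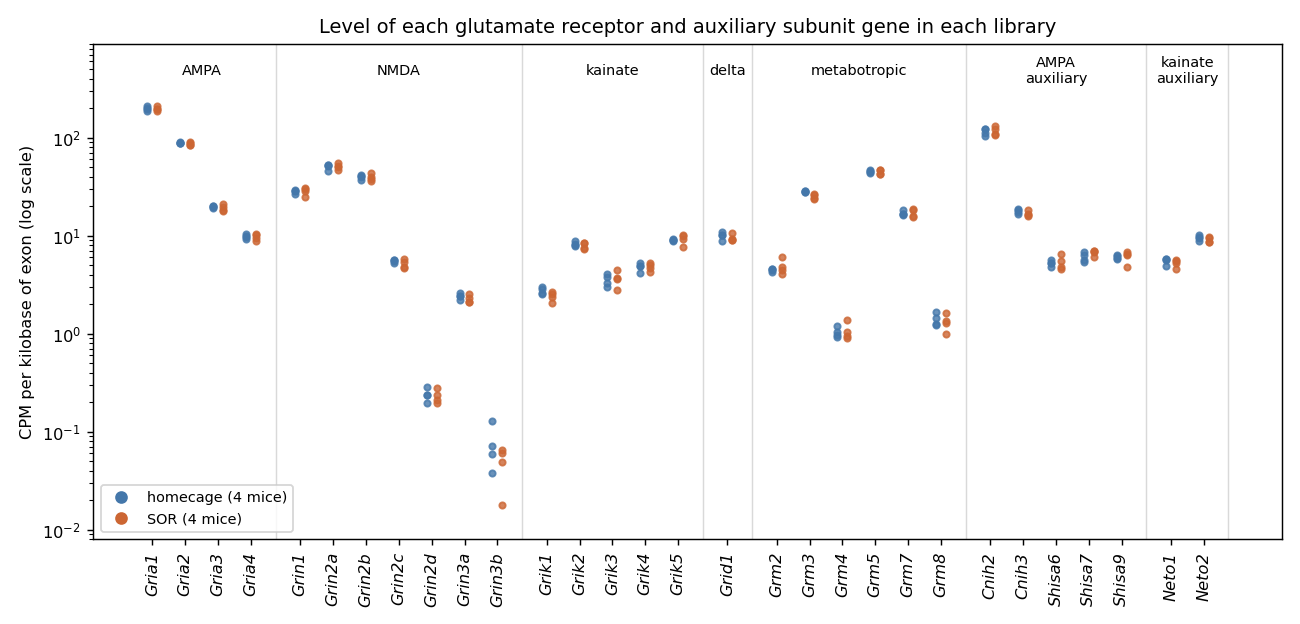
Level of each of the 30 genes in each library, in CPM per kilobase of merged exon on a log scale, with homecage libraries in blue and SOR libraries in orange (4 mice each). Points of both groups lie on top of each other for nearly every gene, and only the *Grm3* points do not overlap between groups.

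After training, none of the 30 genes differed from homecage past the test. With edgeR's quasi-likelihood test at an adjusted p under 0.05, 0 of 30 were called, where 68 of all 22018 genes, or 0.309%, were called. At an unadjusted p under 0.05, 1 of 30 passed (*Grm3*), against 10.1% of all genes. The SOR libraries lay beyond all homecage libraries for the same 1 gene of 30, against 6.94% of all genes. The likelihood ratio test of edgeR, DESeq2 and limma-voom also called 0 of the 30.

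The replicates allowed more to be said than that the test was missed. For 29 of 30 genes, the 95% interval of the fold change lay within 1.4-fold in both directions, against 58.9% of all genes tested. The 30 genes were also more abundant than most, with a median of 47.3 CPM beside 6.92 CPM and a median SE of 0.073 beside 0.12, and the interval lay within the same bounds for 55 of the 59 partner genes described further on (93.2%, median 56.8 CPM). The exception was *Grin3b*, the gene with the lowest level. For 22 of 30 genes the interval lay within 1.2-fold. The share of all genes within that bound was not counted, so this number marks precision and no trait of these genes. The intervals are for RNA of the whole dorsal hippocampus and do not bound a change within a subfield or cell type. Estimates were above 0 for 11 genes and below 0 for 19, with a median log2 fold change of -0.016, beside -0.019 over all genes, of which 43.8% were above 0. This split moved with the processing. TMM scaling, RLE scaling and DESeq2 each gave 16 above and 14 below, where 50.2% to 50.7% of all genes were above 0. Library size scaling gave 12 above and 18 below, and fits with a library left out gave 7 to 17 above.

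**Figure D2:**
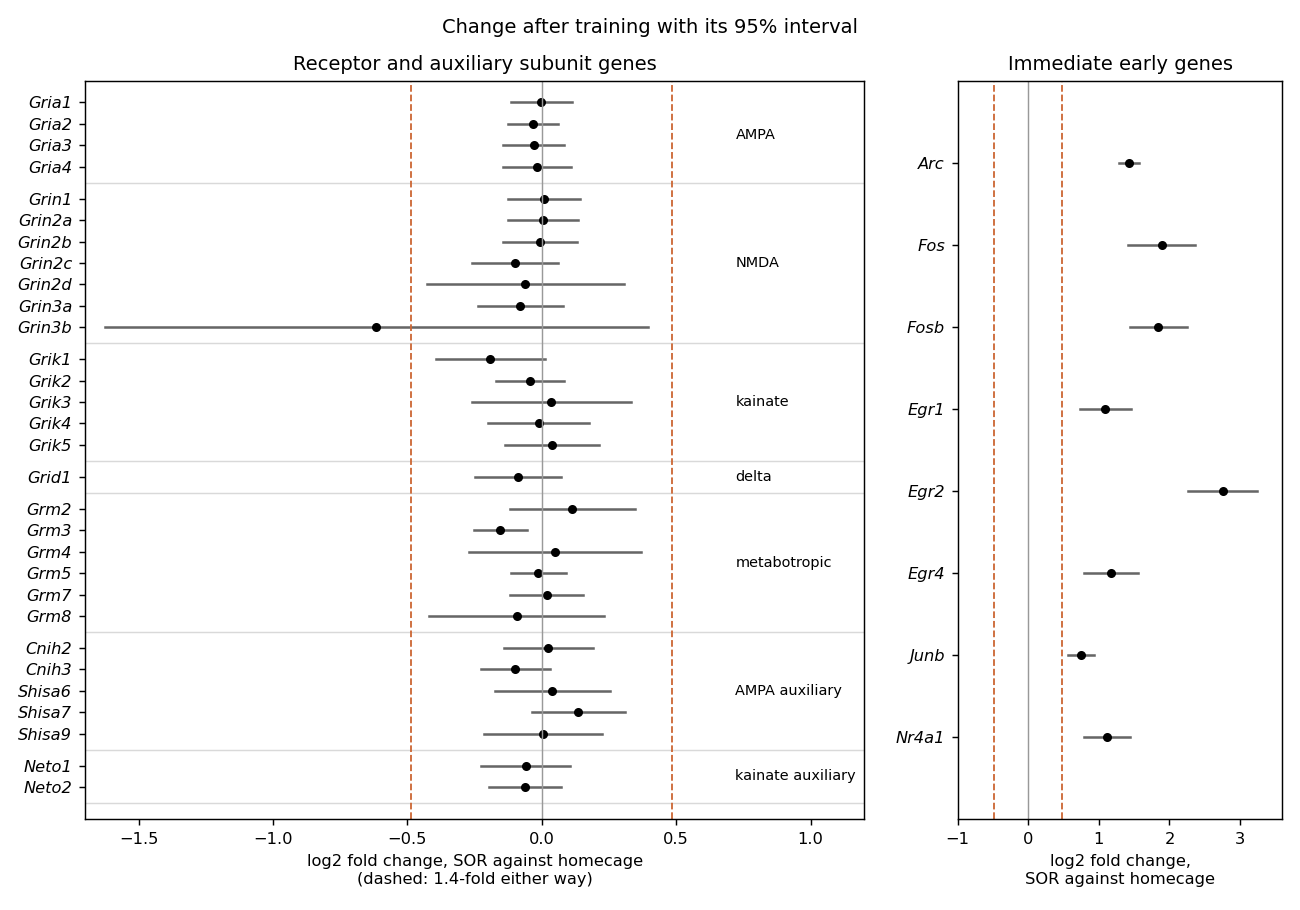
Log2 fold change of SOR against homecage for each of the 30 genes (left) and for 8 immediate early genes that check the training label (right, on a wider axis), as points with 95% intervals. Dashed lines mark a 1.4-fold change in either direction, and every interval on the left except that of *Grin3b* lies between them, while all 8 on the right lie beyond the upper line.

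The 4 AMPA receptor genes carry most of the excitatory current. *Gria1* was at 1115, 1168, 1224 and 1264 CPM in the homecage mice and at 1184, 1193, 1130 and 1257 CPM in the SOR mice. The groups overlapped over nearly their whole range, the log2 fold change was -0.0019 ± 0.052 (SE), and the 95% interval ran from a decrease of 7.72% to an increase of 8.08%. For *Gria2*, homecage values were 1365, 1364, 1414 and 1380 CPM and SOR values 1301, 1414, 1373 and 1314 CPM, which again overlapped, with a log2 fold change of -0.032 ± 0.042. *Gria3* and *Gria4*, the less abundant subunits, had log2 fold changes of -0.031 and -0.019. Summed over the class, homecage libraries held 2741 to 2896 CPM and SOR libraries 2718 to 2875 CPM.

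Composition of the AMPA class was also close between groups. Per kilobase, *Gria1* made up 62.5% ± 1.24 of the class in homecage and 63.0% ± 1.67 in SOR mice (SD, n = 4 each), and *Gria2* 28.2% ± 0.779 and 27.8% ± 1.18. *Gria3* accounted for 6.25% and 6.17%, and *Gria4* for 3.11% and 3.10%. The ratio of *Gria1* to *Gria2* per kilobase was 2.22 ± 0.105 in homecage and 2.27 ± 0.158 in SOR libraries, with overlapping ranges. Its size rests on the merged exon lengths (6.043 and 15.548 kilobases), and in CPM *Gria2* had the higher mean in both groups. The same lengths were used in both groups, so the comparison between groups does not rest on them.

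Among the NMDA receptor genes, *Grin1* encodes the subunit that every NMDA receptor contains. It was at 260, 275, 274 and 286 CPM in homecage and at 242, 274, 295 and 288 CPM in SOR libraries, so that the SOR values enclosed the homecage values. The antisense gene *Grin1os*, at a mean of 3.49 CPM, shares 13.5% of the *Grin1* exon length. *Grin2a* and *Grin2b*, the subunits that dominate in the adult forebrain, had log2 fold changes of 0.0048 ± 0.059 and -0.0080 ± 0.062. Their 95% intervals ran from -8.39% to 9.89% and from -9.62% to 9.42%. The ratio of *Grin2a* to *Grin2b* per kilobase, which rises during development and sets how long NMDA currents last, was 1.28 ± 0.027 in homecage mice and 1.30 ± 0.076 in SOR mice. The size of this ratio rests on exon length, and in CPM *Grin2b* was above *Grin2a*, with homecage means of 982 and 908. Class sums were 2066 to 2319 CPM and 2081 to 2400 CPM.

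The rarer NMDA subunits were measured with less precision. *Grin2c*, at 27.6 ± 0.899 CPM in the homecage group and 25.7 ± 2.61 CPM in the SOR group, had a log2 fold change of -0.10 ± 0.073. *Grin3a*, a subunit that lowers calcium entry and holds back spine maturation, was at 29.5 ± 1.76 and 27.9 ± 2.41 CPM. *Grin2d*, mostly a subunit of interneurons and of early life, lay between 1.30 and 1.88 CPM in all libraries, and 9.66% of its exon length is shared with the antisense gene *Gm45441*, which was at a mean of 2.68 CPM. *Grin3b* lay between 0.0589 and 0.427 CPM, as little as 2.66 estimated counts in a library, and 32.1% of its exon length is shared with *Tmem259* on the other strand, at a mean of 43.6 CPM. Whether the authors' counting used strand is not given in the sources used here, so reads of these 2 genes and of their partners may be mixed. The log2 fold change of *Grin3b* of -0.62 ± 0.46 (SE) was not distinguishable from 0 at this depth (adjusted p = 0.705, edgeR). With a library left out it ran from -0.82 to -0.19, with -0.19 without homecage replicate 4 and -0.37 without SOR replicate 4. In the alternative fits with all libraries it ran from -0.77 to -0.55.

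Of the kainate receptor genes, *Grik1*, which encodes the GluK1 subunit found largely in interneurons, had the largest difference. Its values were 20.3, 17.4, 17.2 and 19.0 CPM in homecage libraries and 13.9, 17.0, 18.0 and 15.8 CPM in SOR libraries. Both groups held values between 17 and 18 CPM, and SOR replicate 1 was the lowest. The log2 fold change was -0.19 ± 0.091 with an unadjusted p of 0.061 and an adjusted p of 0.518 (edgeR), and the exact permutation test gave p = 0.114. Summed markers of inhibitory neurons were at 485 to 504 CPM in homecage and 472 to 525 CPM in SOR libraries, and their part in the *Grik1* values was not tested.

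*Grik2*, the main pore-forming kainate subunit of hippocampal mossy fibre synapses, was at 109 ± 5.44 and 105 ± 7.91 CPM. *Grik4* and *Grik5*, high-affinity subunits that need a partner to form a channel, had log2 fold changes of -0.012 ± 0.085 and 0.039 ± 0.079, and that of *Grik3* was 0.034 ± 0.13. *Grik5* (31.7% ± 0.517) and *Grik2* (29.0% ± 1.32) made up most of the class per kilobase in homecage libraries, and 32.8% ± 1.69 and 28.5% ± 1.58 in SOR libraries. *Grid1*, a delta receptor that binds cerebellins to organize synapses rather than passing glutamate current, had means of 59.5 ± 5.17 (homecage) and 56.0 ± 4.48 CPM (SOR), and its log2 fold change was -0.089 ± 0.072.

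*Grm3* was the 1 gene of the 30 whose groups did not overlap. It encodes the group II metabotropic receptor mGlu3, which couples to inhibitory G proteins and is expressed by astrocytes and by neurons of the hippocampus. Homecage replicates 1 to 4 were at 84.7, 86.3, 86.1 and 84.0 CPM, and SOR replicates 1 to 4 at 72.0, 78.3, 81.8 and 74.4 CPM. Every SOR library was thus below every homecage library, and the homecage values lay within a narrow range. The log2 fold change was -0.15 ± 0.044 (SE), a change of -10.1% with an interval from -16.1% to -3.82%. It did not pass the correction over all genes (unadjusted p = 0.0055, adjusted p = 0.25, edgeR quasi-likelihood test). The exact permutation test gave p = 0.0286, the smallest that 4 against 4 mice allow. Any gene whose groups do not overlap gives this p, so it restates the separation. In the 8 fits that each omitted 1 library, estimates ran from -0.19 to -0.13 and the unadjusted p was under 0.05 in 8 of 8, while the adjusted p lay between 0.158 and 0.516.

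**Figure D3:**
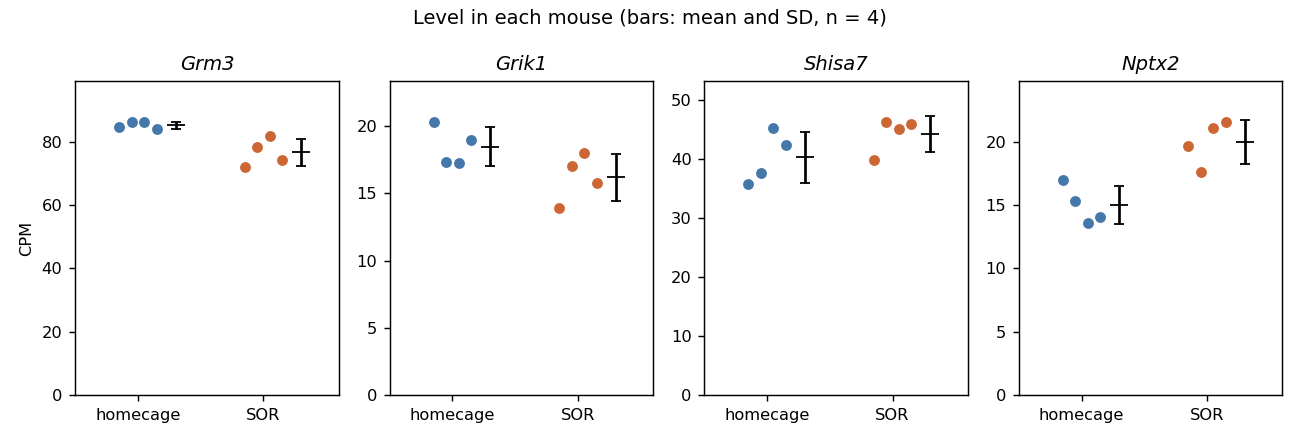
CPM in each mouse for *Grm3*, *Grik1*, *Shisa7* and *Nptx2*, with the mean and SD of each group (n = 4) as bars beside the points and each axis starting at 0. *Grm3* is lower and *Nptx2* higher in every SOR mouse than in any homecage mouse, whereas the groups overlap for *Grik1* and *Shisa7*.

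Among glial markers, the summed level of 6 astrocyte genes was 2024 to 2124 CPM in homecage and 1938 to 2158 CPM in SOR libraries, so the groups overlapped. Oligodendrocyte precursor genes summed to 168 to 175 CPM and 157 to 176 CPM, and mature oligodendrocyte genes to 5308 to 5787 CPM and 4338 to 5697 CPM. Of the 7 mature oligodendrocyte genes, 7 had estimates below 0 (median log2 fold change -0.19), 3 of them with an unadjusted p under 0.05 and 0 past the adjusted one (edgeR), where 10.1% and 0.309% of all genes were. Every SOR library was below every homecage library for *Opalin* (-0.50) of this list and for *Sox10* (-0.29) of the precursor list. Groups did not overlap for 6.94% of all genes. The adjusted p of *Opalin* was 0.164 here (edgeR quasi-likelihood test, no RUVs factor). The paper, whose bulk analysis used RUVs, reports *Opalin* as lower after training in both its bulk and pseudobulk spatial comparisons. Of the 5 precursor genes, 4 had estimates below 0. The 1 above 0, *Gpr17* (0.16), had an unadjusted p of 0.021 (edgeR) and overlapping groups. *Opalin*, *Sox10* and *Gpr17* were named after their values were seen. Of the 5 microglia genes, 2 (*Cx3cr1*, -0.24, and *P2ry12*, -0.21) had an unadjusted p under 0.05 and overlapping groups, while 0 of the 6 astrocyte genes did. No marker of these lists was at 0 in any library. Their part in the *Grm3* values was not tested, and in whole tissue fewer cells of a type and less RNA per cell cannot be told apart.

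For the other metabotropic receptor genes the groups overlapped. *Grm5*, the group I receptor that drives calcium release and a form of synaptic depression, was the most abundant of the class. It was at 473, 441, 469 and 453 CPM in homecage and 432, 475, 474 and 439 CPM in SOR libraries, overlapping fully, with a log2 fold change of -0.013 ± 0.046. Per kilobase, *Grm3* made up 29.0% ± 0.396 of the class in homecage and 26.8% ± 0.301 in SOR mice, and *Grm5* 46.4% ± 1.18 and 47.4% ± 0.604. The ratio of *Grm5* to *Grm3*, which carries the same *Grm3* values, was 1.52 to 1.66 in homecage and 1.72 to 1.80 in SOR libraries.

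*Grm2*, the other group II receptor, was at 20.8, 22.2, 22.5 and 22.0 CPM in homecage libraries and at 19.9, 22.0, 23.3 and 29.5 CPM in SOR libraries. Its log2 fold change of 0.11 ± 0.11 rested on SOR replicate 4, without which it was -0.011. The group III receptors *Grm4*, *Grm7* and *Grm8*, which sit mostly on presynaptic terminals and hold back release, had log2 fold changes of 0.049 ± 0.15, 0.018 ± 0.062 and -0.094 ± 0.15. *Grm7* was the best measured of them, with group means of 99.2 ± 4.89 and 100 ± 8.53 CPM (homecage, then SOR).

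The auxiliary subunits gave a like picture. *Cnih2* was at 158 ± 11.9 and 160 ± 16.2 CPM in the homecage and SOR groups, a log2 fold change of 0.023 ± 0.075. Its relative *Cnih3*, at 49.2 ± 2.55 and 46.0 ± 2.99 CPM, had one of -0.098 ± 0.057. The Shisa proteins of this set, also called CKAMPs, bind AMPA receptors and alter their desensitization. *Shisa7*, which also associates with GABA-A receptors, was at 35.8, 37.5, 45.2 and 42.3 CPM in homecage and at 39.7, 46.2, 45.0 and 45.9 CPM in SOR libraries. Homecage replicates 1 and 2 were the lowest, the groups overlapped, and the log2 fold change was 0.14 ± 0.079 (unadjusted p = 0.113, adjusted p = 0.611, edgeR). *Shisa6* and *Shisa9* had log2 fold changes of 0.040 and 0.0055. *Neto1* and *Neto2*, which slow kainate receptor currents, had -0.060 ± 0.075 and -0.063 ± 0.060.

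Across the 30 genes, the median absolute log2 fold change was 0.042, beside 0.057 over the partner genes, which have a similar level, and 0.099 over all genes tested, which are mostly lower. The median coefficient of variation between mice of a group was 5.71% in the homecage and 8.58% in the SOR group. SOR replicate 1 was the lowest of 8 libraries for 18 of the 30 genes (60.0%), among them *Grik1*, *Grik3*, *Grik5*, *Grm8* and *Shisa9*, and the highest for 0. Over all genes tested it was lowest for 22.2% and highest for 15.1%. SOR replicate 2 was the highest for 10 of the 30 (33.3%), and for 12.8% of all genes. Without SOR replicate 1, the library with the highest choroid plexus markers, 17 estimates were above 0 and 13 below, with a median of 0.0062. In that fit 3 genes had an unadjusted p under 0.05, namely *Grik5* (log2 fold change 0.12), *Shisa7* (0.18) and *Grm3* (-0.13), a share of 10.0% beside 9.65% of all genes in the same fit, and 0 passed after adjustment (edgeR). The part of tissue makeup in these values was not tested.

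**Figure D4:**
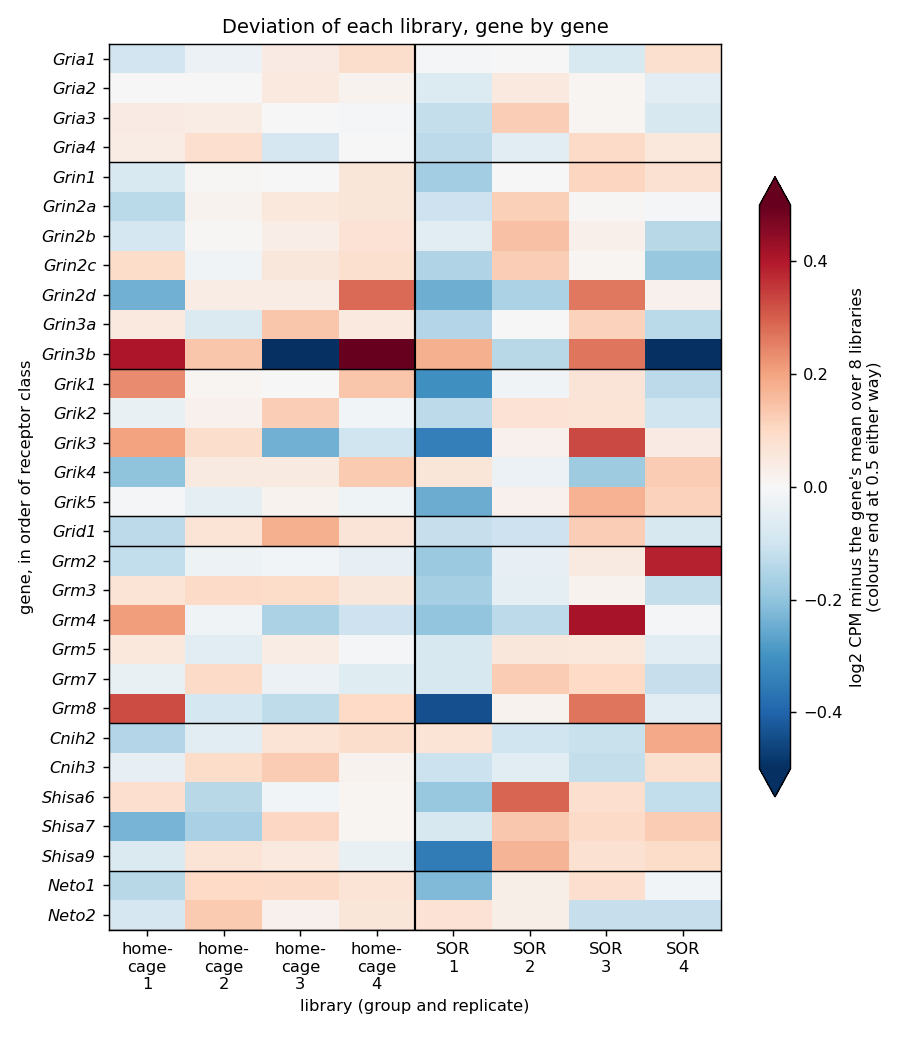
Deviation of each library from the gene's own mean over 8 libraries, in log2 CPM, with 1 row per gene in order of receptor class and 1 column per mouse. Blue dominates the column of SOR replicate 1, the lowest library for 18 of 30 genes, and *Grm3* is the one row whose 4 homecage cells all exceed its 4 SOR cells.

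Promoters were inspected for letters bound by factors of activity-regulated transcription, namely the CRE (TGACGTCA), its first 5 letters (TGACG), which any CRE also holds, and an EGR site (GCGGGGGCG), each on both strands. RefSeq promoter windows of GRCm38.p6, from 250 bases before to 50 bases after a start, were matched for 18 of the 30 genes. The CRE was in 0 of 18, against 2.03% of all 27025 genes, and TGACG in 3 (*Grik2*, *Grin1* and *Grm8*), against 23.0%. The EGR letters were in 2 (*Grin1* and *Grm3*), against 3.31% of genes, and 2 matches are too few to compare with that share. The stretches around both matches are shown because 1 belongs to the gene whose groups did not overlap and the other to a gene whose groups did. They run from 100 bases before to 30 after the RefSeq start, on the minus strand, chr2:25319158-25319287 for *Grin1* and chr5:9725323-9725452 for *Grm3*, with the EGR letters in capitals.
Grin1: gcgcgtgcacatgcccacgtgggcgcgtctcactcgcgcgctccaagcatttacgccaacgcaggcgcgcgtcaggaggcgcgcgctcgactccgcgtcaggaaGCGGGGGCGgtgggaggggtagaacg
Grm3: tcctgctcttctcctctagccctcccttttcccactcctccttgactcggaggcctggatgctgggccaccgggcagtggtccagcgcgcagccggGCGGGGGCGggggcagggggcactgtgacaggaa

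The match begins at transcribed base 5 in *Grin1* and spans the start in *Grm3*, whose GENCODE M21 start lies 182 bases further into the gene. These matches describe letters and not binding.

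Genes that act on these receptors were followed through 4 lists with 59 genes, all of which were tested. After adjustment 0 of 59 passed with edgeR's quasi-likelihood test, and 4 had an unadjusted p under 0.05 (*Nptx2*, *Abhd6*, *Grip1* and *Prrt1*), or 6.78% against the 10.1% of all genes. Estimates were above 0 for 27 and below 0 for 32, with a median of -0.0073. By list, 0 of 15 AMPA receptor partners, 0 of 17 scaffold and trafficking genes, 0 of 14 extracellular organizers and 0 of 13 transport and synthesis genes were called in either direction.

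*Nptx2* encodes a secreted pentraxin that clusters AMPA receptors and is itself known as an immediate early gene. It was at 17.0, 15.3, 13.6 and 14.1 CPM in homecage libraries and at 19.6, 17.6, 21.1 and 21.5 CPM in SOR libraries. All SOR values exceeded all homecage values. Its log2 fold change was 0.41 ± 0.090 (SE) with an unadjusted p of 0.00087 and an adjusted p of 0.122 (edgeR quasi-likelihood test). It was called in 4 of 18 alternative fits, those with the likelihood ratio test, DESeq2 and 1 or 3 RUVs factors, and in none of the 8 fits that left out a library.

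Within the list of AMPA receptor partners, *Abhd6*, which restrains receptor delivery to the surface, had means of 27.5 ± 1.03 (homecage) and 30.1 ± 0.70 CPM (SOR). *Olfm3*, a secreted member of AMPA receptor complexes, was at 19.6 ± 0.132 and 18.5 ± 0.435 CPM. For both the groups did not overlap, and the adjusted p was 0.423 and 0.628 (edgeR). With *Nptx2*, groups did not overlap for 3 of the 59 partner genes, against 6.94% of all genes, so such separations were not more frequent among partners. In the scaffold list, *Grip1*, which binds the tail of GluA2, had a log2 fold change of -0.12 ± 0.051, and *Dlgap4*, a protein of the postsynaptic density, one of 0.11 ± 0.065. *Lrrtm2*, a synaptic adhesion protein, was at 78.4 ± 4.23 and 73.7 ± 2.19 CPM. *Slc38a2*, a glutamine transporter, had 0.14 ± 0.085, and *Slc17a6*, the vesicular glutamate transporter VGLUT2 of thalamic and other afferent neurons, had -0.16 ± 0.11. *Slc17a6* was highest in homecage replicate 1 at 40.1 CPM, the library with the highest thalamus marker sum at 174 CPM. It was next highest in homecage replicate 2 at 38.1 CPM, the library with the lowest homecage thalamus sum at 139 CPM. The part of dissection in the *Slc17a6* values was not tested.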

How the data were processed

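RNA-seq of the dorsal hippocampus was used from 8 of the 34 samples of the series (4 homecage, 4 SOR). The spatial, single-nucleus and ATAC samples were not analysed here. The paper's methods and the labels' protocol name ribosomal RNA depletion, whereas the molecule label names polyA RNA. The methods name STAR, featureCounts, upper-quartile scaling, RUVs (number of factors not given) and edgeR, and the processing notes name mm10. The deposited values are estimated counts per gene, summarized with tximport and not normalized by the authors. Of these, 52.6% are not whole, and the quantifier behind them is not given in the sources used here.

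Counts were rounded, filtered with filterByExpr, scaled by upper-quartile factors and compared with the quasi-likelihood test of edgeR 4.0.16 (R 4.3.3), with Benjamini-Hochberg adjustment over 22018 genes. Intervals are at 95% on about 10.5 degrees of freedom. Exact permutation tests were two-sided, on log2 (CPM + 0.5), over 70 assignments of mice to groups. The common biological coefficient of variation was 14.1%, so that spread between mice and not counting limits most values. GENCODE M21 had a record for 54495 of 54532 genes. The alternatives tried were scaling by TMM, by RLE or by library size, no filter, the likelihood ratio test, DESeq2 1.42.0, limma-voom (limma 3.58.1), RUVs with 1 or 3 factors, a block on the replicate number, a fold threshold of 1.4 and each library left out. Named genes were every member, Arc, Fos and Egr2 and, in each partner list, every called gene and the gene with the smallest p in each direction. Prrt1 and each single cell type or region marker were named after their values were seen. The genes and lists were chosen with earlier results of these data known.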

Additional observations from a re-analysis of the deposited data

Results flagged for a closer look

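Within groups, 2 of 60 sets of 4 values (30 genes in 2 groups) held a library that stood far from the other 3 by Dixon's criterion, which chance alone gives in about 1 of 20 sets. *Grid1* was at 62.6 CPM in SOR replicate 3 and at 53.2 to 54.5 CPM in the other SOR libraries. *Neto1* was at 40.5 CPM in homecage replicate 1 and at 46.8 to 47.8 CPM in the other homecage libraries.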

How the results depend on the processing

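In all 18 alternative fits 0 of the 30 genes passed an adjusted p under 0.05, also with a fold threshold of 1.4. Over all genes the count of calls was 68, and it was 214 with the likelihood ratio test, 442 with DESeq2, 304 and 501 with 1 and 3 RUVs factors, 40 with the replicate block and 30 to 55 with a library left out. Of the 59 partner genes, 1 (*Nptx2*) passed with the likelihood ratio test, DESeq2, 1 RUVs factor and 3 RUVs factors. Receptor genes at an unadjusted p under 0.05 numbered 3 with 3 RUVs factors (*Grik1*, *Grm3*, *Shisa7*; 11.7% of all genes) and 1 to 3 with a library left out (7.76% to 10.4% of all genes), and estimates above 0 numbered 7 to 17. *Grm3* had an adjusted p between 0.104 and 0.407 over the 10 alternatives with all libraries. The causes were not tested.

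The labels state no pairing of mice by replicate number. Deviations of same-numbered libraries correlated between -0.084 and 0.073 and those of others between -0.20 and 0.19. So few correlations cannot show whether mice were paired. With the replicate block 2 of the 30 genes (*Grm3*, *Shisa7*) had an unadjusted p under 0.05 (9.06% of all genes), 0 passed after adjustment, and the *Shisa9* log2 fold change was -0.0048.

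Estimates near 0 changed sign with the scaling. With TMM scaling, RLE scaling and DESeq2, log2 fold changes were 0.019, 0.020 and 0.020 for *Gria1*, 0.00074, 0.0021 and 0.0020 for *Gria4*, 0.011, 0.013 and 0.013 for *Grin2b*, 0.0096, 0.011 and 0.011 for *Grik4*, and 0.0064, 0.0077 and 0.0078 for *Grm5*. *Gria1* was at 0.0048 with library size scaling and 0.00091 with 1 RUVs factor, and *Grin2b* at 0.0015 with 3 RUVs factors. With limma-voom, *Grin1* was at -0.00090 and *Shisa9* at -0.019.

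Leaving out a library changed the sign of 18 genes. Their ranges were -0.032 to 0.025 for *Gria1*, -0.078 to 0.0015 for *Gria3*, -0.055 to 0.019 for *Gria4*, -0.028 to 0.062 for *Grin1*, -0.036 to 0.039 for *Grin2a*, -0.060 to 0.032 for *Grin2b*, -0.17 to 0.030 for *Grin2d*, -0.082 to 0.14 for *Grik3*, -0.073 to 0.044 for *Grik4* and -0.015 to 0.12 for *Grik5*. They were -0.011 to 0.19 for *Grm2*, -0.10 to 0.13 for *Grm4*, -0.033 to 0.0098 for *Grm5*, -0.022 to 0.054 for *Grm7*, -0.21 to 0.021 for *Grm8*, -0.042 to 0.064 for *Cnih2*, -0.059 to 0.11 for *Shisa6* and -0.051 to 0.11 for *Shisa9*.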
